A study of Mus musculus with 14 samples.

Results

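The transcripts that hold a full-grown mouse oocyte in prophase of meiosis I, and those that release it, were followed in RNA-seq libraries of germinal vesicle (GV)-intact oocytes. The set holds 10 genes, *Gpr3*, *Adcy3*, *Pde3a*, *Wee2*, *Wee1*, *Cdc25a*, *Cdc25b*, *Cdk1*, *Ccnb1* and *Ccnb2*, out of 20638 genes with a symbol in the count files. They were listed for their known roles, with earlier results of these data known. A gene with several RefSeq transcripts is represented by the one with the highest mean count. All 10 genes passed the filter on low counts in each comparison.

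Prophase arrest rests on cyclic AMP (cAMP) in the oocyte. GPR3, a receptor that is active without a ligand, turns on adenylyl cyclase through the G protein Gs, and ADCY3 is one such cyclase. cAMP activates protein kinase A, which keeps WEE2 (WEE1B), an oocyte kinase that inhibits CDK1, active and CDC25B, a phosphatase that activates CDK1, inactive. When PDE3A hydrolyses cAMP, this brake is lost, CDK1 bound to cyclin B1 or B2 becomes active, and the GV breaks down.

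The libraries came from 5 groups. In *Ago2* fl/fl oocytes both copies of *Ago2* are floxed and no Cre is present. *Ago2* ADH oocytes (*Ago2* fl/ADH; Cre/+) keep only an allele whose product binds small RNAs without cutting their targets, and *Ago2* null oocytes, from the same crosses, have no functional allele. *Dicer* WT and *Dicer* KO oocytes come from wild-type mice and from mice that lack *Dicer* in oocytes only. In the *Ago2* mutants Cre was driven by the *Zp3* promoter, which acts in growing oocytes, and the *Ago2* fl/fl controls carried no Cre. All females were 4 to 6 weeks old and had been primed 48 h earlier with 5 IU of the gonadotropin eCG, and the strain was a mixed, mostly C57BL6 background. Oocyte collection medium contained 2.5 µM milrinone, an inhibitor of PDE3A that blocks GV breakdown, so that arrest was also held by a drug in every group. Each library was made of 20 oocytes pooled from 3 mice (3 or 4 per the study's methods). There were 3 libraries per group and 2 for *Ago2* null.

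Counts on transcripts ranged from 29380403 to 58285057 per library, at which a floor of 3 counts corresponds to 0.0515 to 0.102 counts-per-million (CPM). Levels below are CPM scaled by edgeR's TMM factors over the 14 libraries. *Ago2* was at 24.0 to 25.5 CPM in *Ago2* fl/fl, 12.4 to 13.7 in *Ago2* ADH and 5.30 to 7.17 in *Ago2* null libraries. *Dicer1* was at 745 to 779 CPM in *Dicer* WT and 1679 to 1944 in *Dicer* KO libraries. It was thus higher in the KO, and since a count over the whole transcript does not show whether the deleted exons were read, it does not check that label. The 12 oocyte markers were detected in every group, at 12037 to 18529 CPM in sum. The summed level of 16 granulosa and cumulus cell markers was 80.2 to 86.4 CPM in *Ago2* fl/fl, 67.9 to 73.4 in *Ago2* ADH, 60.9 to 64.1 in *Ago2* null, 98.5 to 106 in *Dicer* WT and 83.2 to 89.5 in *Dicer* KO libraries, with *Ptx3* and *Foxl2* at 0 in both control groups. This sum was lower in each mutant than in its control, but not every marker went with it. *Foxl2* was detected in at least 1 library of each mutant group, and *Ptx3* in *Ago2* ADH. The median log2 fold change was -0.07 over 10 markers tested in *Ago2* ADH, -0.46 over 12 in *Ago2* null and -0.15 over 8 in *Dicer* KO oocytes. The sum of 7 theca and stroma markers was 2.61 to 3.75 CPM in *Ago2* fl/fl, 4.02 to 9.69 in *Ago2* ADH and 2.31 to 3.82 in *Ago2* null libraries, and 2.24 to 3.21 in *Dicer* WT and 1.83 to 1.96 in *Dicer* KO libraries. The oocyte sum was also lower in *Dicer* KO libraries, at 12037 to 12351 CPM against 12924 to 13002 in *Dicer* WT. The part of these markers in the results was not tested. In pooled oocytes, fewer cells of a type and less RNA per cell cannot be told apart. By the lane codes in the names of the deposited files, no *Ago2* genotype shared its sequencing lane with another, and for these groups the lane and the genotype cannot be told apart.

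*Gpr3* and *Pde3a*, with opposite roles in cAMP control, were both down-regulated in *Ago2* ADH and *Ago2* null oocytes, and *Wee1* and *Cdc25b*, with opposite roles in CDK1 control, were both up-regulated. *Ccnb1* was down-regulated in *Ago2* ADH oocytes. In *Dicer* KO oocytes *Pde3a* was the gene that passed the test, and it was down-regulated. *Wee2*, *Cdc25a*, *Cdk1*, *Ccnb2* and *Adcy3* did not pass it in any of the 3 comparisons.

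Mis-regulation was tested by edgeR's quasi-likelihood test, adjusted by the Benjamini-Hochberg method over every transcript tested, and a transcript was called where the false discovery rate (FDR) was at most 1%. This is the source of each edgeR adjusted p given here. Of the 10 genes, 5 were called in *Ago2* ADH oocytes against *Ago2* fl/fl, 2 up and 3 down, where 40.7% of all transcripts tested were called, 20.5% up and 20.1% down. In *Ago2* null oocytes, against the same controls, 4 were called, 2 up and 2 down, where 37.2% of all transcripts were, 18.1% up and 19.1% down. In *Dicer* KO oocytes against *Dicer* WT 1 was called, down, where 34.5% of all transcripts were, 16.7% up and 17.8% down. At an FDR of 5% the *Dicer* KO count was 5, where 46.2% of all transcripts were called. No difference from these background shares was tested. The median absolute log2 fold change of the 10 genes was 0.17 in *Ago2* ADH, 0.15 in *Ago2* null and 0.18 in *Dicer* KO oocytes, against 0.34, 0.37 and 0.36 over all transcripts tested. Groups did not overlap for 5, 8 and 5 of the genes, against 60.0%, 66.9% and 54.5% of all transcripts.

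**Figure D1:**
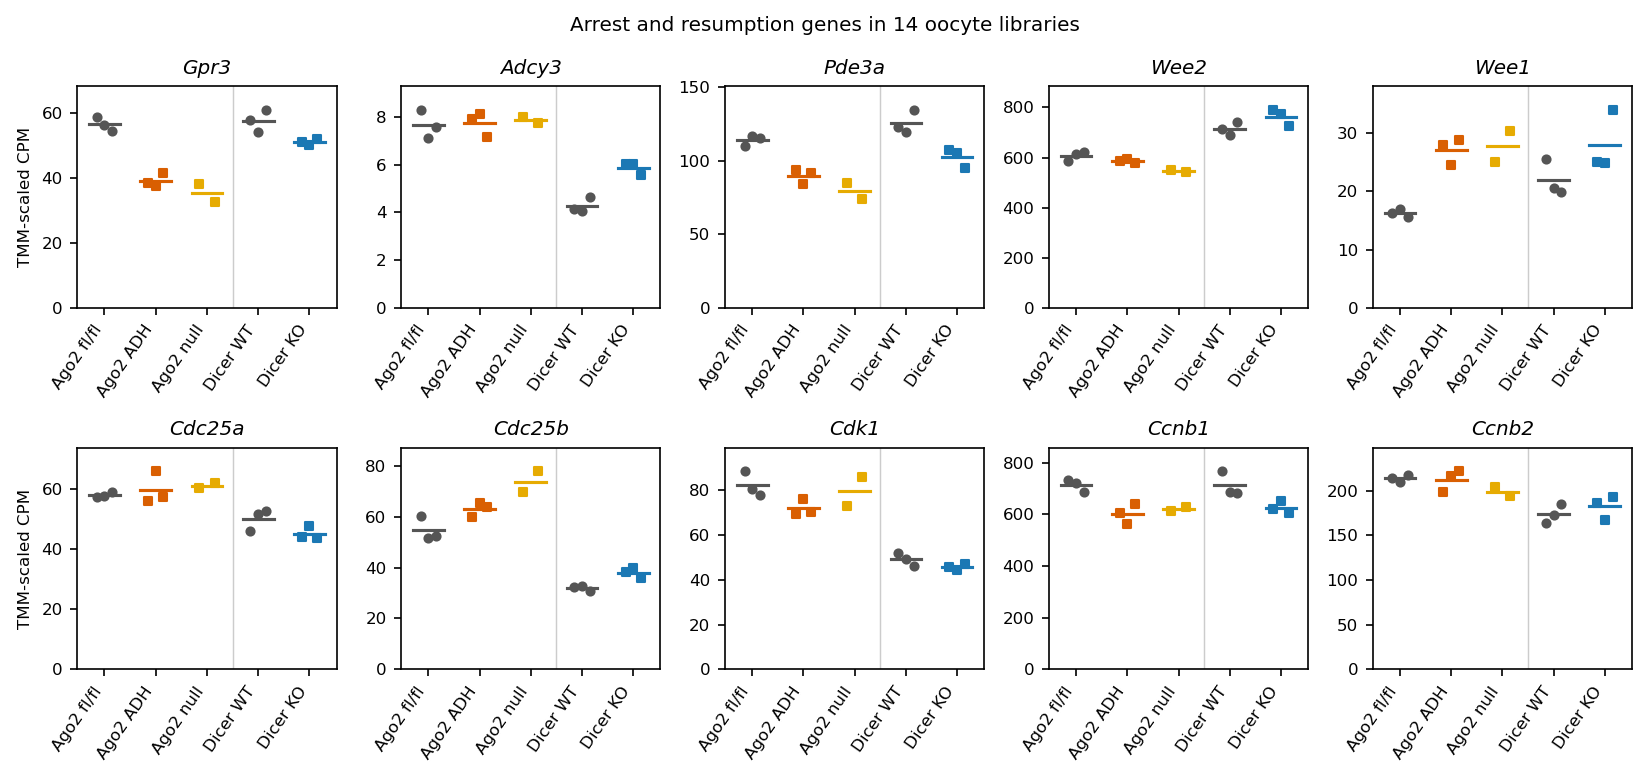
Level of each gene (TMM-scaled CPM, linear axis from 0) in every library of the 5 groups; points are libraries and short lines are group means. *Gpr3* and *Pde3a* lie lower and *Wee1* higher in every *Ago2* mutant library than in every *Ago2* fl/fl library.

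In control oocytes the set spans a wide range of levels. Per kb of transcript, *Ago2* fl/fl oocytes held *Ccnb1* at 286 ± 9.98 CPM (SD, n = 3), *Wee2* at 211 ± 6.36 and *Ccnb2* at 139.6 ± 2.63, and each of these lay above all of the others. *Gpr3* followed at 50.6 ± 1.95 with a transcript model of 1116 nt, or 22.4 ± 0.866 with its longest coding model of 2518 nt. *Cdk1* at 18.8 ± 1.27 and *Cdc25b* at 17.8 ± 1.53 overlapped, and *Cdc25a* lay just below at 16.0 ± 0.252. The lowest were *Pde3a* at 9.24 ± 0.299, *Wee1* at 4.76 ± 0.182 and *Adcy3* at 1.76 ± 0.135. CDK1 itself was thus encoded by less RNA per length than either of its cyclins. Among 11166 genes at 1 CPM or more in *Ago2* fl/fl oocytes, the level per length of *Ccnb1* stood at percentile 98.6, that of *Pde3a* at 57.8 and that of *Adcy3* at 23.7.

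*Dicer* WT oocytes, sequenced as a separate series and so given only beside these, had the same 4 genes in front. *Ccnb1* was at 286 ± 19.0 CPM per kb (SD, n = 3), *Wee2* at 248 ± 9.44, *Ccnb2* at 114 ± 6.96 and *Gpr3* at 51.5 ± 3.06. *Cdc25b* at 10.4 ± 0.309 and *Pde3a* at 10.2 ± 0.630 overlapped there. *Wee1* and *Pde3a* changed places in the *Ago2* mutants. *Wee1* reached 7.94 ± 0.670 CPM per kb in *Ago2* ADH oocytes, where it overlapped *Pde3a* at 7.28 ± 0.420. In *Ago2* null oocytes *Wee1* lay above *Pde3a* without overlap, at 8.11 ± 1.08 against 6.46 ± 0.628 (SD, n = 2). In *Dicer* KO oocytes *Wee2* at 265 ± 11.7 and *Ccnb1* at 251 ± 9.58 overlapped.

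**Figure D2:**
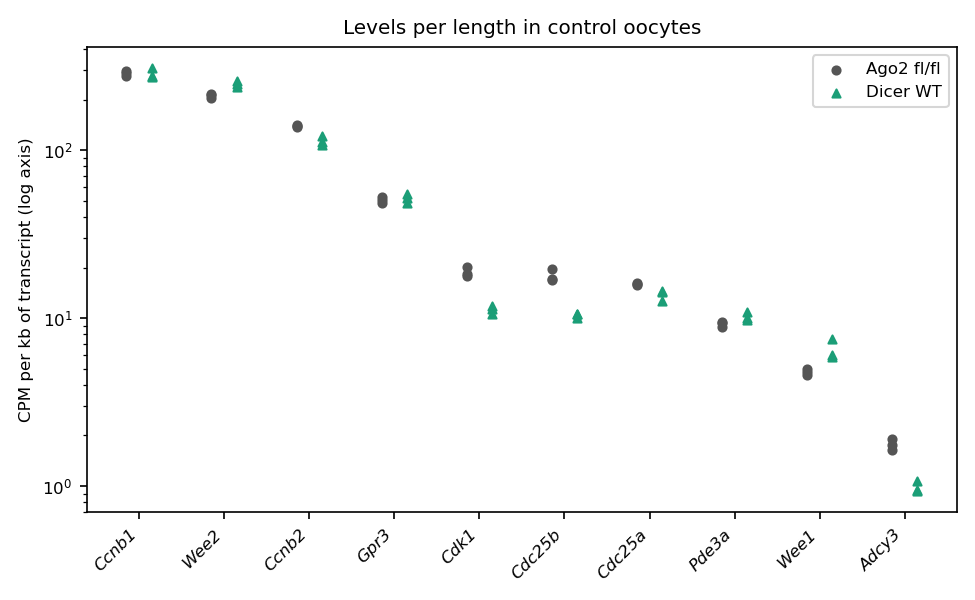
Level per length of each gene (CPM per kb of transcript, log axis) in the *Ago2* fl/fl and *Dicer* WT libraries, ordered by the *Ago2* fl/fl mean; each point is 1 library. *Ccnb1*, *Wee2* and *Ccnb2* lie above 100 and *Adcy3* lies lowest; *Gpr3* is drawn with its 1116 nt model.

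Promoters are shown for *Gpr3*, which had the largest fall of the 10 genes in both *Ago2* mutants, and for the 3 genes that encode CDK1 and its cyclins, which are known to be co-regulated in dividing cells through CCAAT boxes and a further element read as TTTGAA. Each sequence is the 250 bases before the RefSeq start of the gene (build GRCm38.p6), on the strand of the gene, with matches to CCAAT or TTTGAA on either strand in capitals. They lie at chr4:133212537-133212786 (minus strand), chr10:69352913-69353162 (minus), chr13:100786487-100786736 (minus) and chr9:70421555-70421804 (minus).
Gpr3: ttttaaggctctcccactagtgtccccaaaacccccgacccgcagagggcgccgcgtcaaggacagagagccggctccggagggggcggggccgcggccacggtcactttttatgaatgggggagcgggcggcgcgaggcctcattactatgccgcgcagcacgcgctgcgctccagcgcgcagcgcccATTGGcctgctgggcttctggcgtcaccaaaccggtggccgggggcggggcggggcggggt
Cdk1: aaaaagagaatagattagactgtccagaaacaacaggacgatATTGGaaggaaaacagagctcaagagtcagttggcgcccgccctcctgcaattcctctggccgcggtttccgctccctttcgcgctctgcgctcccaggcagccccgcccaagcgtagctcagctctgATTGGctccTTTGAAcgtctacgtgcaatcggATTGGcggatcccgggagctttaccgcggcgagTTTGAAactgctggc
Ccnb1: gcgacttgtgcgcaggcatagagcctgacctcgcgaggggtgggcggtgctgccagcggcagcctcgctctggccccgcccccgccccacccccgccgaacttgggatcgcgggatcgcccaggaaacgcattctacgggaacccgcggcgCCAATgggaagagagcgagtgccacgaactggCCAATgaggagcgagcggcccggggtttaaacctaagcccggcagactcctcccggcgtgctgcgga
Ccnb2: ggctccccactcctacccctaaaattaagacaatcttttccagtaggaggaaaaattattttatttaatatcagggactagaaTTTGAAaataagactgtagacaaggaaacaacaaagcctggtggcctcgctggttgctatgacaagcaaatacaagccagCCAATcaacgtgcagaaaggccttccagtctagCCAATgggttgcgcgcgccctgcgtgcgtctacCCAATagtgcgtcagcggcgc

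Of 32851 promoters of this length, 33.9% held CCAAT, 16.0% held TTTGAA and 5.55% held both. The *Gpr3* promoter had 1 CCAAT, 61 bases before the start. *Ccnb1* had 2, at 99 and 67 bases, and no TTTGAA before the start. Bases after the start were not searched in any promoter. *Ccnb2* had 3 CCAAT, at 87, 54 and 21 bases, and 1 TTTGAA at 167. *Cdk1* had 3 CCAAT, at 208, 80 and 48 bases, and 2 TTTGAA, at 71 and 15. No match overlapped another in these 4 promoters. Of the 10 genes, 8 had an entry, each with at least 1 CCAAT in an entry, and 2 of these 8 held TTTGAA. *Adcy3* had a second entry without CCAAT, so 8 of 9 promoter entries held it. *Ccnb1* was called in 1 comparison, and *Cdk1* and *Ccnb2*, whose promoters hold both motifs, were called in none. A match of letters is a description of the sequence and says nothing about binding.

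*Gpr3* (chromosome 4, 133209340 to 133212536 of GRCm38), the receptor gene at the head of the pathway, was at 58.7, 56.3 and 54.4 CPM in *Ago2* fl/fl, 38.5, 37.4 and 41.4 in *Ago2* ADH and 38.2 and 32.4 in *Ago2* null libraries. Every mutant library lay below every control. The log2 fold change was -0.48 in *Ago2* ADH oocytes (standard error 0.0669, edgeR adjusted p = 6.95e-06) and -0.65 in *Ago2* null oocytes (standard error 0.0831, edgeR adjusted p = 7.18e-06), to 0.715 and 0.639 of the control. In the *Dicer* series it was at 57.7, 54.0 and 60.9 CPM in WT and 51.0, 50.2 and 52.0 in KO libraries. The groups did not overlap, and the log2 fold change of -0.17 missed the threshold (standard error 0.0752, edgeR adjusted p = 0.0651). Exons of *Gpr3* overlap those of *Cd164l2* on the other strand by 111 bases, and the counting ignored strand.

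*Adcy3* (chromosome 12, 4133116 to 4213525), the cyclase gene, was the least abundant of the set. It was at 8.30, 7.13 and 7.58 CPM in *Ago2* fl/fl, 7.93, 8.12 and 7.17 in *Ago2* ADH and 8.01 and 7.74 in *Ago2* null libraries, with all 3 groups overlapping. In the *Dicer* series it was at 4.14, 4.06 and 4.65 CPM in WT and 6.05, 6.01 and 5.57 in KO libraries, which did not overlap. The log2 fold change of 0.45 missed the threshold (standard error 0.181, edgeR adjusted p = 0.0487), and it passed with the transcripts of each gene summed (edgeR adjusted p = 0.00833). No reads were tallied as ambiguous, so a read shared by the 3 transcripts of *Adcy3* may have been counted for each. The summed value may then hold the same reads more than once. Exons of *Adcy3* overlap those of *Cenpo*, a centromere protein gene on the other strand, by 1379 of 4348 bases, and reads there cannot be told apart without strand. *Cenpo* was at 82.1 to 91.9 CPM in *Dicer* WT and 98.7 to 110.0 in *Dicer* KO libraries, and it was called higher at a log2 fold change of 0.28 (standard error 0.0693, edgeR adjusted p = 0.00272). Its part in the *Adcy3* values was not tested.

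*Pde3a* (chromosome 6, 141249269 to 141506862), whose product ends cAMP signalling and is the target of milrinone, was the only gene of the 10 called in all 3 comparisons. It was at 109.6, 117 and 115 CPM in *Ago2* fl/fl, 93.5, 83.7 and 91.6 in *Ago2* ADH and 84.9 and 74.0 in *Ago2* null libraries. Its level in *Dicer* oocytes was 123, 119.6 and 134 CPM in WT and 107, 105 and 94.9 in KO libraries. No mutant library reached its own control group. The log2 fold changes were -0.30 in *Ago2* ADH (standard error 0.0592, edgeR adjusted p = 0.000361), -0.49 in *Ago2* null (standard error 0.0719, edgeR adjusted p = 3.22e-05) and -0.30 in *Dicer* KO oocytes (standard error 0.0696, edgeR adjusted p = 0.00165). The first pair of values share the *Ago2* fl/fl libraries. An antisense gene, *Gm28523*, overlaps 741 exonic bases of *Pde3a*.

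Over the 14 libraries, with the mean of each series subtracted from log2 CPM, the genes whose pattern was most like that of *Pde3a* among 10348 genes compared were *Dand5* (Pearson r = 0.982), *Hivep1* (0.978) and *Dnajc13* (0.975). These correlations are across libraries of 5 genotypes and were ranked to find the highest, so they are a description. *Dand5*, which encodes a secreted antagonist of Nodal, was at 6.84 to 7.40 CPM in *Ago2* fl/fl and 6.92 to 7.32 in *Dicer* WT, and at 3.73 to 4.76 in *Ago2* ADH, 2.99 to 4.13 in *Ago2* null and 3.71 to 4.49 in *Dicer* KO libraries. *Hivep1*, a zinc finger gene, was at 719 to 753 CPM in *Ago2* fl/fl and 415 to 505 in *Ago2* null libraries. All 3 were called lower in each mutant, which follows from choosing them for likeness to *Pde3a* and is no separate result.

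*Wee2* (chromosome 6, 40435246 to 40466815), which encodes the inhibitory kinase of the oocyte, stayed close to its control level. It was at 587, 613 and 622 CPM in *Ago2* fl/fl, 586, 596 and 579 in *Ago2* ADH and 552 and 541 in *Ago2* null libraries. The *Ago2* null libraries lay below all others of the series, with a log2 fold change of -0.12 that missed the threshold (standard error 0.0540, edgeR adjusted p = 0.0715). In *Dicer* oocytes it was at 715, 688 and 743 CPM in WT and 791, 775 and 726 in KO libraries, which overlapped, with a log2 fold change of 0.09 (standard error 0.0589, edgeR adjusted p = 0.222).

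*Wee1* (chromosome 7, 110122059 to 110143299), the related kinase of somatic cells, had the largest change of the set in the *Ago2* mutants. It was at 16.2, 16.9 and 15.7 CPM in *Ago2* fl/fl, 28.0, 24.5 and 28.8 in *Ago2* ADH and 25.1 and 30.3 in *Ago2* null libraries. Control and mutant libraries were well apart, with log2 fold changes of 0.78 (standard error 0.0895, edgeR adjusted p = 6.25e-07) and 0.80 (standard error 0.0999, edgeR adjusted p = 5.26e-06), or 1.72-fold and 1.74-fold. *Dicer* WT libraries had 25.5, 20.6 and 19.96 CPM and *Dicer* KO libraries 25.0, 24.9 and 34.0. These groups overlapped, since WT replicate 1 lay above 2 KO libraries, and the log2 fold change of 0.34 missed the threshold (standard error 0.128, edgeR adjusted p = 0.0347).

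*Cdc25b* (chromosome 2, 131186436 to 131198511), the phosphatase gene needed for resumption in mouse oocytes, was at 60.3, 51.7 and 52.6 CPM in *Ago2* fl/fl, 59.7, 65.2 and 63.8 in *Ago2* ADH and 69.7 and 77.8 in *Ago2* null libraries. The *Ago2* null libraries lay above all controls, while *Ago2* fl/fl replicate 1 lay within the *Ago2* ADH range. It rose by a log2 fold change of 0.46 in *Ago2* null oocytes (standard error 0.0788, edgeR adjusted p = 0.000143) and of 0.24 in *Ago2* ADH oocytes (standard error 0.0672, edgeR adjusted p = 0.00501). The *Ago2* ADH call was lost when *Ago2* fl/fl replicate 2 or 3 or *Ago2* ADH replicate 2 or 3 was left out (edgeR adjusted p = 0.0144 to 0.0406) and under 3 other settings given in the closing section. *Dicer* WT libraries had 32.5, 32.6 and 30.9 CPM and KO libraries 38.1, 40.0 and 36.0, without overlap, and the log2 fold change of 0.25 missed the threshold (standard error 0.0843, edgeR adjusted p = 0.0231).

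*Cdc25a* (chromosome 9, 109875518 to 109893895), a further activating phosphatase gene, was at 56.1 to 65.9 CPM over all *Ago2* libraries and at 43.7 to 52.7 over the *Dicer* libraries. Its log2 fold changes were 0.09 in *Ago2* ADH, 0.11 in *Ago2* null and -0.16 in *Dicer* KO oocytes (edgeR adjusted p = 0.258, 0.201 and 0.126). *Cdc25c*, a further family member outside the set that was chosen after its values were seen, was at 9.56 to 10.3 CPM in *Ago2* fl/fl and 12.1 to 13.5 in *Ago2* null libraries, where it was called higher at a log2 fold change of 0.41 (standard error 0.115, edgeR adjusted p = 0.00754).

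*Cdk1* (chromosome 10, 69335146 to 69352912), which encodes the kinase itself, was at 88.4, 80.6 and 77.7 CPM in *Ago2* fl/fl, 69.2, 75.9 and 70.5 in *Ago2* ADH and 72.8 and 86.1 in *Ago2* null libraries. All *Ago2* ADH libraries lay below the controls, and the log2 fold change of -0.15 missed the threshold (standard error 0.0606, edgeR adjusted p = 0.0476). The *Ago2* null libraries lay on both sides of a control, at -0.02 (edgeR adjusted p = 0.858). *Dicer* WT and KO libraries overlapped, at 46.3 to 51.7 and 44.3 to 47.1 CPM, with a log2 fold change of -0.11 (edgeR adjusted p = 0.284).

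*Ccnb1* (chromosome 13, 100778739 to 100786486), the main cyclin B gene of the set, was at 734, 720.0 and 685 CPM in *Ago2* fl/fl, 606, 564 and 639 in *Ago2* ADH and 614 and 627 in *Ago2* null libraries. In *Dicer* oocytes it was at 767, 687 and 684 CPM in WT and 619.6, 652 and 605 in KO libraries. Each mutant group lay below its control by a similar amount. The log2 fold change was -0.19 in *Ago2* ADH (standard error 0.0512, edgeR adjusted p = 0.00376), -0.17 in *Ago2* null (standard error 0.0528, edgeR adjusted p = 0.0137) and -0.19 in *Dicer* KO oocytes (standard error 0.0618, edgeR adjusted p = 0.0165), so the first passed the threshold and the others did not. The *Dicer* KO value passed under 6 of 11 alternatives and the *Ago2* null value under 4. Both counts include the main fit read at an FDR of 5%, which these adjusted p-values pass without a new test. Without *Ago2* fl/fl replicate 1 or 2 or *Ago2* ADH replicate 1 or 2 the *Ago2* ADH call was lost (edgeR adjusted p = 0.0119 to 0.0227). Near-identical copies of *Ccnb1* exist elsewhere in the genome, among them *Ccnb1-ps* with 99.2% identity over 1287 bases and *Gm12856* with 98.1% over 1294, so its count is uncertain to the extent that reads were shared.

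*Ccnb2* (chromosome 9, 70407689 to 70421554), the second cyclin B gene, was at 214, 209.5 and 218 CPM in *Ago2* fl/fl, 198, 216 and 222 in *Ago2* ADH and 204 and 193 in *Ago2* null libraries. *Dicer* WT libraries held 164, 172 and 185 CPM and KO libraries 186, 168 and 193. The log2 fold changes were 0.03, -0.07 and 0.06 (edgeR adjusted p = 0.592, 0.296 and 0.464), none of which passed the threshold. Both *Ago2* null libraries lay below the 3 controls, while the *Ago2* ADH and the *Dicer* KO libraries overlapped theirs.

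**Figure D3:**
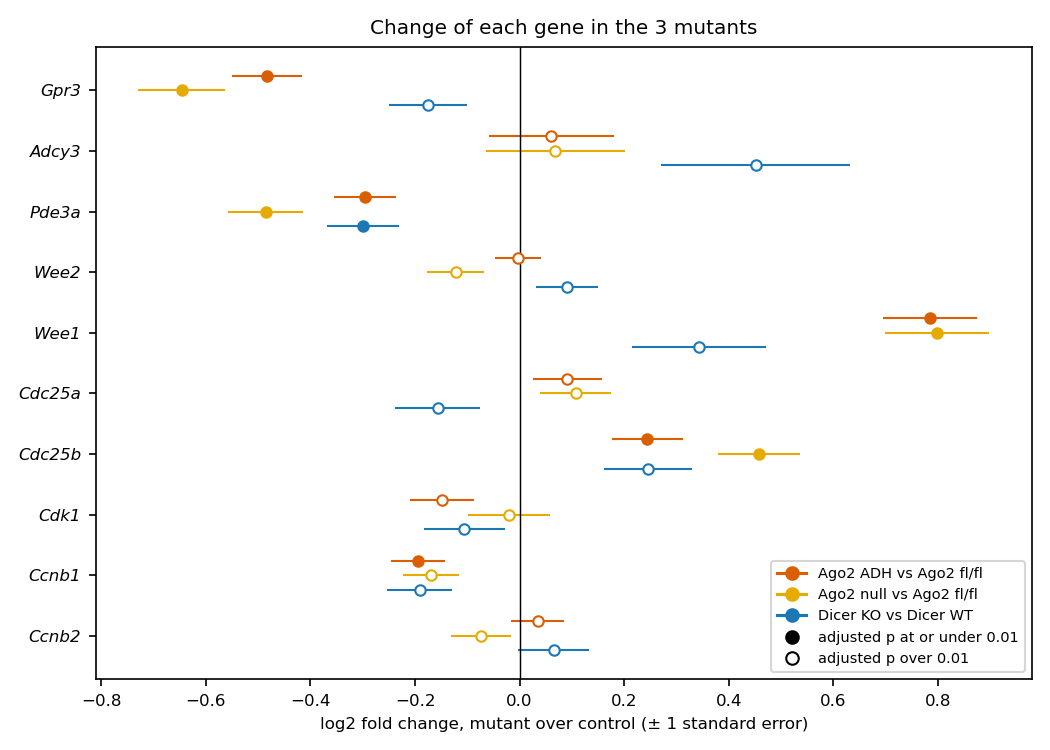
Log2 fold change of each gene, mutant over control, with bars of 1 standard error on each side, in the 3 mutant comparisons; filled points passed an FDR of 1%. *Gpr3* and *Pde3a* lie to the left and *Wee1* and *Cdc25b* to the right of 0 in each comparison, and *Pde3a* alone is filled in all 3.

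*Ago2* ADH and *Ago2* null oocytes were compared directly to ask whether losing the cutting activity differs from losing the protein. None of the 10 genes was called, where 0.119% of 19306 transcripts were, 0.0673% higher and 0.0518% lower in *Ago2* ADH (edgeR, and none with DESeq2). At an unadjusted p under 0.05, as for 1931 of the 19306 transcripts, there were 2, *Pde3a*, with a log2 difference of 0.17 between *Ago2* ADH and *Ago2* null (standard error 0.0802), and *Cdc25b*, with -0.23 (standard error 0.0768). The *Ago2* ADH values of *Cdc25b*, 59.7 to 65.2 CPM, did not overlap the *Ago2* null values, 69.7 and 77.8. Groups did not overlap for 2 genes, *Cdc25b* and *Wee2*, against 25.9% of all transcripts.

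Whether a gene changed by different amounts in *Ago2* ADH than in *Dicer* KO oocytes, each against its own control, was tested as an interaction. None of the 10 genes was called, against 3.55% of 19500 transcripts, 1.2% with the higher and 2.35% with the lower effect in *Ago2* ADH (edgeR, and none with DESeq2), and 3 had an unadjusted p under 0.05, as did 23.3% of all transcripts. The *Gpr3* effects differed by -0.36 on the log2 scale, *Ago2* ADH minus *Dicer* KO (standard error 0.0978, edgeR adjusted p = 0.0232). This passed at an FDR of 5%, as did 8.4% of all transcripts, and not at 1%. *Adcy3* differed by -0.44 (standard error 0.1997, edgeR adjusted p = 0.182) and *Wee1* by 0.39 (standard error 0.165, edgeR adjusted p = 0.154). The *Pde3a* effects differed by -0.05 (standard error 0.0909, edgeR adjusted p = 0.797).

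Ratios of related genes within a library do not depend on scaling between libraries, and 9 were compared by 2-sided exact permutation tests, which cannot give a p below 0.1 with 3 libraries against 3 or below 0.2 with 2 against 3. The log2 ratio of *Wee2* to *Wee1* counts was 5.17, 5.18 and 5.31 in *Ago2* fl/fl, 4.39, 4.60 and 4.33 in *Ago2* ADH and 4.46 and 4.15 in *Ago2* null libraries. *Wee2* thus stayed far in excess, while its lead was smaller by 0.78 in *Ago2* ADH (exact p = 0.1) and by 0.92 in *Ago2* null oocytes (exact p = 0.2), without overlap. In *Dicer* oocytes it was 4.81, 5.06 and 5.22 in WT and 4.98, 4.96 and 4.41 in KO libraries, which overlapped (exact p = 0.4).

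The log2 ratio of *Ccnb1* to *Ccnb2* was 1.78, 1.78 and 1.66 in *Ago2* fl/fl and 1.61, 1.39 and 1.53 in *Ago2* ADH libraries, lower by 0.23 without overlap (exact p = 0.1). It was 1.59 and 1.70 in *Ago2* null libraries (exact p = 0.4). *Dicer* WT libraries had 2.22, 1.99 and 1.88 and KO libraries 1.74, 1.96 and 1.65, which overlapped (exact p = 0.2). The ratio of *Cdc25a* to *Cdc25b* shifted toward *Cdc25b* in *Dicer* KO oocytes, at 0.21, 0.26 and 0.28 against 0.50, 0.67 and 0.77 in WT on the log2 scale (exact p = 0.1). It was -0.07, 0.16 and 0.17 in *Ago2* fl/fl, -0.09, 0.02 and -0.15 in *Ago2* ADH (exact p = 0.2) and -0.21 and -0.33 in *Ago2* null libraries (exact p = 0.2). Adjusted over the 9 tests by Benjamini-Hochberg, the lowest exact permutation p was 0.257.

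**Figure D4:**
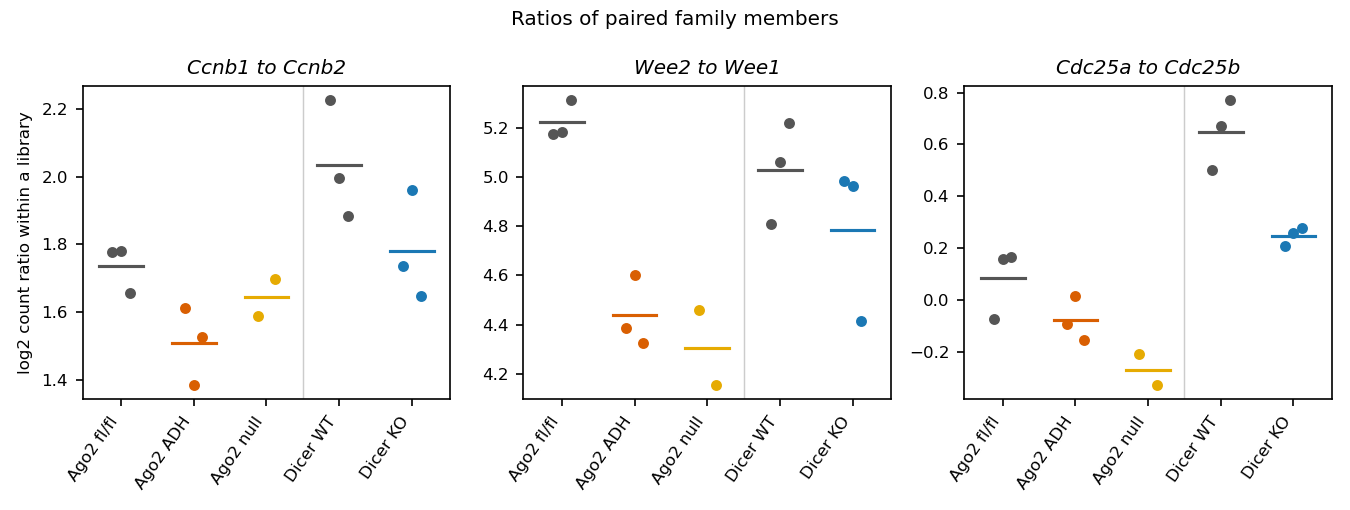
Log2 ratio of the counts of related genes within each library, by group; points are libraries, lines are group means and each panel has its own scale. The ratio of *Wee2* to *Wee1* lies between 5.17 and 5.31 in *Ago2* fl/fl and between 4.15 and 4.60 in the *Ago2* mutants.

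The wider pathway was read from a list of 91 other genes in 4 arms. In *Ago2* ADH oocytes 38 of 87 tested were called, 20 up and 18 down, in *Ago2* null oocytes 38 of 87, 21 up and 17 down, and in *Dicer* KO oocytes 32 of 85, 18 up and 14 down. These are 43.7%, 43.7% and 37.6% of the genes tested, near the 40.7%, 37.2% and 34.5% of all transcripts called. The median log2 fold change of the list was -0.0019, 0.03 and 0.0019, against 0.0069, 0.0018 and -0.0044 over all transcripts. The comparisons of *Ago2* ADH and *Ago2* null share their controls.

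In the cAMP arm, which holds G proteins, cyclases, protein kinase A subunits and phosphodiesterases, 6 genes rose and 7 fell of 28 tested in *Ago2* ADH, 5 rose and 7 fell of 28 in *Ago2* null, and 5 rose and 6 fell of 27 in *Dicer* KO oocytes. Of all transcripts, 20.5% were called up and 20.1% down in *Ago2* ADH, 18.1% and 19.1% in *Ago2* null, and 16.7% and 17.8% in *Dicer* KO oocytes, and the counts of each arm are to be read against these. *Gnai1*, an inhibitory G protein subunit, was at 103, 91.0 and 89.5 CPM in *Ago2* fl/fl, 38.0, 35.4 and 35.6 in *Ago2* ADH and 42.2 and 40.2 in *Ago2* null libraries. It was at 107, 122 and 108 CPM in *Dicer* WT and 59.5, 53.0 and 51.4 in KO libraries. Control and mutant libraries were far apart in both series, with log2 fold changes of -1.33, -1.17 and -1.04 (edgeR adjusted p = 4.43e-12, 2.22e-09 and 2.36e-09). *Prkar2b*, a regulatory subunit of protein kinase A, was at 32.7 to 34.1 CPM in *Ago2* fl/fl, 14.9 to 19.6 in *Ago2* ADH and 16.1 to 18.5 in *Ago2* null libraries, log2 fold changes of -0.90 and -0.93 (edgeR adjusted p = 1.25e-07 and 3.53e-07). *Adcy5*, a cyclase gene, fell by 0.51 and 0.65 in the *Ago2* mutants (edgeR adjusted p = 0.0011 and 0.000116). Related genes, added after their values were seen, did not all fall. *Adcy1*, also a cyclase gene, rose by 1.92 and 1.83. Its mean was 6.47 CPM in *Ago2* fl/fl, 23.8 in *Ago2* ADH and 22.5 in *Ago2* null libraries. *Prkar2a*, a further regulatory subunit, rose by 0.81 and 0.77, from a mean of 42.7 CPM to 72.4 and 71.1. *Prkar1a*, another regulatory subunit, fell by 0.28 and 0.36. Each of these was called in both *Ago2* mutants. *Pde5a*, a phosphodiesterase of cyclic GMP, rose from 1.60 to 2.04 CPM in *Ago2* fl/fl to 13.9 to 15.9 in *Ago2* ADH and 13.9 to 14.1 in *Ago2* null libraries, log2 fold changes of 3.08 and 2.96 (edgeR adjusted p = 5.68e-13 and 7.43e-11).

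In the arm of CDK1 control, 6 genes rose and 8 fell of 27 in *Ago2* ADH, 8 rose and 5 fell in *Ago2* null, and 5 rose and 2 fell in *Dicer* KO oocytes. *Cdc14b*, a phosphatase gene, was at 348 to 384 CPM in *Ago2* fl/fl and 1346 to 1677 in *Ago2* ADH libraries, and at 235 to 285 in *Dicer* WT and 954 to 1015 in KO libraries. Its log2 fold change was 2.09 in *Ago2* ADH, 2.03 in *Ago2* null and 1.87 in *Dicer* KO oocytes (edgeR adjusted p = 1.49e-15, 1.37e-14 and 1.4e-13). *Ccnh*, the cyclin subunit of the CDK-activating kinase, was at 45.6 to 51.0 CPM in *Ago2* fl/fl, 104 to 127 in *Ago2* ADH and 126 to 164 in *Ago2* null libraries, and rose from 27.1 to 32.1 in *Dicer* WT to 107 to 136 in KO libraries (log2 fold change 2.03, edgeR adjusted p = 1.27e-12). *Cdk7*, the kinase subunit of that complex, was chosen after its values were seen. It was at 211 to 226 CPM in *Ago2* fl/fl and 757 to 964 in *Ago2* ADH libraries, and at 192 to 239.9 in *Dicer* WT and 744 to 780.1 in KO libraries, log2 fold changes of 2.00 and 1.76 (edgeR adjusted p = 5.12e-15 and 6.5e-13). *Mnat1*, the third subunit, was at 18.1 to 19.96 CPM in *Ago2* ADH and 30.2 and 31.6 in *Ago2* null libraries, the 1 gene of the list called between these mutants (log2 difference -0.70, edgeR adjusted p = 0.00109). That call was lost without *Ago2* ADH replicate 1 or either *Ago2* null library. *Pkmyt1*, the third kinase that inhibits CDK1, also chosen after its values were seen, was at 31.5 to 36.7 CPM in *Ago2* fl/fl and 34.1 to 38.8 in the *Ago2* mutants and was not called (edgeR adjusted p = 0.0405 for *Ago2* ADH and 0.279 for *Ago2* null).

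Among Greatwall kinase and PP2A genes, which set how long CDK1 substrates stay phosphorylated, 4 rose and 2 fell of 14 in *Ago2* ADH, 4 rose and 3 fell of 14 in *Ago2* null, and 3 rose and 3 fell of 13 in *Dicer* KO oocytes. *Ppp2cb*, a catalytic subunit, was at 0.723 to 1.28 CPM in *Ago2* fl/fl, 4.09 to 5.95 in *Ago2* ADH and 6.06 to 6.40 in *Ago2* null libraries (log2 fold changes 2.47 and 2.77, edgeR adjusted p = 6.9e-08 and 6.73e-08). *Ppp2ca*, the more abundant catalytic subunit gene, was added after its values were seen. Its mean was 78.6 CPM in *Ago2* fl/fl, 75.8 in *Ago2* ADH and 79.9 in *Ago2* null libraries. It was not called (log2 fold changes -0.0046 and 0.05, edgeR adjusted p = 0.954 and 0.611). *Ppp2r1b*, a scaffold subunit, fell by 0.99 on the log2 scale in *Dicer* KO oocytes (edgeR adjusted p = 1.43e-06), from 21.2 to 26.9 CPM in WT to 11.6 to 12.9. In the arm of cyclin B turnover, 4 genes rose and 1 fell of 18 in *Ago2* ADH, 4 rose and 2 fell in *Ago2* null, and 5 rose and 3 fell in *Dicer* KO oocytes. *Ube2c*, an E2 enzyme that works with the anaphase-promoting complex, was at 127 to 143 CPM in *Dicer* WT and 522 to 542 in KO libraries (log2 fold change 1.98, edgeR adjusted p = 7.44e-15). *Anapc13*, a subunit of that complex, fell by 0.81 in *Dicer* KO oocytes (edgeR adjusted p = 0.000418).

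**Figure D5:**
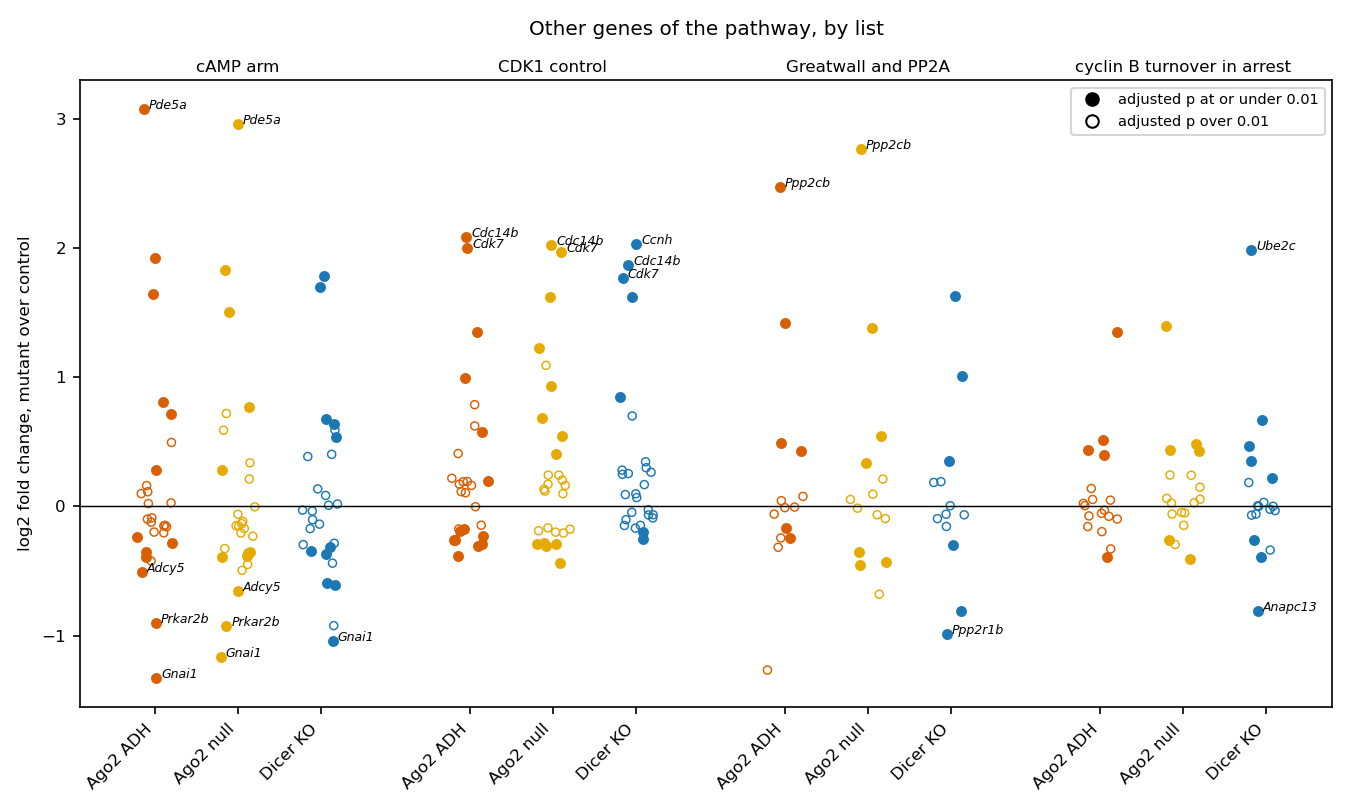
Log2 fold change, mutant over control, of the other pathway genes tested in the 4 lists; each point is a gene, spread sideways for legibility, and filled points passed an FDR of 1%. Named points were chosen by size of change, with *Cdk7* added; *Gnai1* lies near -1 or lower in all 3 mutants and *Cdc14b* near 2.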

How the data were processed

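Per the labels and the study's methods, the authors made amplified cDNA from lysed oocytes and sequenced paired-end libraries. They aligned reads to mm10 (GRCm38) with TopHat (TopHat2 2.0.7 in the processing notes), allowing up to 100 alignments per read. The study's methods give other mismatch options for shorter than for longer reads, and do not say which libraries had which. HTSeq 0.6.1 counted reads without strand in intersection-strict mode. The values the authors deposited are raw counts per RefSeq transcript, without normalization. Reads with several alignments are tallied apart.

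The 10 genes, the pathway lists and the tests were chosen with earlier results of these data known. Of 26495 transcript IDs, RefSeq named 26077 and GENCODE 117, and 301 stayed unnamed. Lengths are those of GENCODE models.

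Each comparison was fitted on its own libraries over all transcripts with edgeR 4.0.16 in R 4.3.3, after filterByExpr (minimum count 10, minimum total 15) and TMM. The quasi-likelihood test was adjusted by Benjamini-Hochberg, and calls were made at an FDR of 1%. The standard error is the absolute log2 fold change divided by the square root of F. Scripts were tested on simulated counts. Python 3.11.15 gave the other values, with pandas 2.3.3, scipy 1.17.1 and numpy 2.4.6. Within-library ratios had 0.5 added to each count.

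Pathway genes named are the 3 largest changes per direction among those called whose mean normalized count was 100 or more. Alternatives were DESeq2 1.42.0, RLE, upper quartile or library size scaling, an FDR of 5%, no filter, a filter of 10 or more counts per library, 1 or summed transcripts per gene, all 5 groups in one fit, the replicate number as a block, and each library left out. Copies were sought at 95% identity over 100 bases. The cDNA was amplified and carries no molecular identifiers, so the floor of 3 counts covers counting error only. Libraries were separate pools of mice by the study's methods.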

Additional observations from a re-analysis of the deposited data

Results flagged for a closer look

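Of 86 other pathway genes tested, 10 (11.6%) had *Ago2* ADH and *Dicer* KO effects that differed in the interaction test of edgeR at an FDR of 1%, where 3.55% of all transcripts did. The number fell to 4 without *Ago2* fl/fl replicate 1, *Ago2* ADH replicate 1 or *Dicer* WT replicate 2. Values are the *Ago2* ADH effect minus the *Dicer* KO effect, each as a log2 fold change against its own control.

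Effects were higher in *Ago2* ADH for *Ppp2cb* by 2.22 (2.47 against 0.19, edgeR adjusted p = 0.00711), for *Pde5a* by 1.24 (3.08 against 1.79) and for *Adcy1*, a cyclase gene, by 1.24 (1.92 against 0.64). *Ppp2cb* had low and scattered counts in the *Dicer* series, 116, 86 and 55 in WT and 29, 69 and 138 in KO libraries. Its *Dicer* KO effect is therefore loosely determined. *Ppp2r1b* differed by 0.69, since its level was nearer the control in *Ago2* ADH (-0.24 against -0.99). Effects were lower in *Ago2* ADH for *Ccnh*, at -0.74 (1.35 against 2.03), and *Ube2c*, at -0.69 (1.35 against 1.98, edgeR adjusted p = 9.07e-06). *Prkar2b* differed by -0.61, and fell in both (-0.90 against -0.34). *Ppp2r2a*, a regulatory subunit of PP2A, differed by -0.57 (0.49 against 1.01). *Cdc20*, an activator of the anaphase-promoting complex, differed by -0.55 (-0.03 against 0.47). *Ccna2*, the cyclin A2 gene, differed by -0.33 (0.58 against 0.85). *Cdc20*, *Ccna2* and *Ppp2r2a* are named only because this test called them.

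The tally of reads with several alignments, which no gene level uses, took a share of 33.7% ± 0.800 of the transcript counts and tallies in the files in *Ago2* fl/fl (SD, n = 3), 57.7% ± 0.401 in *Ago2* ADH (SD, n = 3) and 57.6% ± 0.873 in *Ago2* null libraries (SD, n = 2). The mutants were higher by 24.0 and 24.0 percentage points. In *Dicer* KO libraries it was 46.3% ± 2.82 against 28.4% ± 2.99 in *Dicer* WT (SD, n = 3 each), higher by 17.9 points. Up to 100 alignments were kept per read, and the tally may hold each of them. These shares therefore cannot be taken as shares of reads. The part of this tally in the counts of genes with near copies, such as *Ccnb1*, was not tested.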

How the results depend on the processing

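The calls of *Gpr3*, *Pde3a* and *Wee1* in both *Ago2* mutants, of *Cdc25b* in *Ago2* null and of *Pde3a* in *Dicer* KO oocytes held under all 11 alternatives and with each library left out. Among these 11, the FDR of 5% reuses the main fit, so a call made at 1% cannot fail it. *Cdc25b* in *Ago2* ADH oocytes missed the threshold with library size scaling (edgeR adjusted p = 0.0158), upper quartile scaling (0.0109) and all 5 groups in one fit (0.0301). The cause was not tested.

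Of the 10 genes, the number called in *Dicer* KO oocytes rose from 1 to 5 at an FDR of 5% (46.2% of all transcripts), and to 2 with DESeq2, library size or upper quartile scaling, no filter, summed transcripts or all 5 groups in one fit. In that order, 6775, 6593 and 6476 of 18570, 6917 of 23717, 4484 of 13952 and 7296 of 20256 entries tested were called under the latter settings. The gene gained was *Adcy3* with summed transcripts and *Ccnb1* under the other 5 of these (adjusted p = 0.0011 to 0.0095). Summing may count reads shared by transcripts of a gene more than once. The number ranged from 1 to 2 with 1 library left out (2 without *Dicer* WT replicate 3, where 5548 of 18880 transcripts were called). In *Ago2* ADH oocytes it ranged from 3 to 4 (3 without *Ago2* fl/fl replicate 2 or *Ago2* ADH replicate 2). Those last 2 fits called 6401 of 19177 and 7292 of 19119 transcripts. *Ccnb1* passed in *Ago2* null oocytes with DESeq2 (adjusted p = 0.00624), library size scaling (edgeR 0.00468) and no filter (edgeR 0.00735). In the interaction 1 gene, *Gpr3*, passed at an FDR of 5%, as did 8.4% of all transcripts.

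Of the pathway genes, those called between *Ago2* ADH and *Ago2* null ranged from 0 to 1 with 1 library left out. In the interaction 5 were called with summed transcripts, and 4 to 9 with 1 library left out (4 without *Ago2* fl/fl replicate 1, *Ago2* ADH replicate 1 or *Dicer* WT replicate 2, 5 without *Ago2* fl/fl replicate 2, *Ago2* ADH replicate 3 or *Dicer* WT replicate 1, and 6 without *Ago2* fl/fl replicate 3 or *Dicer* KO replicate 1 or 2). Library size scaling split all interaction calls into 346 higher and 351 lower, against 234 and 458, and moved the median of all transcripts to 0.04, against -0.03.

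Direction reversed for log2 values of genes that were not called. With at least 10 counts in every library, *Wee2* in *Ago2* ADH was 0.0069 and *Cdk1* in *Ago2* null 0.0043. *Ccnb2* in *Ago2* ADH was -0.011 with library size scaling and -0.012 with all 5 groups. With library size scaling the interaction was 0.020 for *Pde3a*, 0.017 for *Cdc25b* and 0.014 for *Ccnb1*. With 1 library left out, *Wee2* in *Ago2* ADH ranged from -0.036 to 0.014, *Ccnb2* from -0.0069 to 0.072, and *Cdk1* in *Ago2* null from -0.14 to 0.098. Between *Ago2* ADH and *Ago2* null, *Adcy3* ranged from -0.053 to 0.021, *Wee1* from -0.16 to 0.11, *Cdc25a* from -0.10 to 0.0089 and *Ccnb1* from -0.090 to 0.010. The interaction of *Cdc25b* ranged from -0.094 to 0.021.

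Same-numbered libraries correlated in their deviations at -0.157 to 0.058. With 2 or 3 libraries per group this cannot settle whether the numbers pair them. With the replicate block 5, 4 and 1 of the 10 genes were called in *Ago2* ADH, *Ago2* null and *Dicer* KO oocytes. Of all transcripts, 7679 of 18835, 6041 of 19236 and 5678 of 18570 were called with it. Between the *Ago2* mutants the block gave 142 calls among 19306 transcripts, against 23 without it. With it 2 pathway genes differed between these mutants, and *Adcy3* differed there by 0.022. Depth limits *Adcy3* most, at 160 to 195 counts in the *Dicer* WT libraries.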
